A study of Mus musculus with 6 samples.

Results

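The arylacetamide deacetylase cluster on mouse chromosome 3 was followed here through 4 genes, Aadacl2fm1, Gm9696, Aadacl2 and Aadac, among 19938 genes measured in the series. They were taken by the gene symbol of the platform annotation, and each had 1 probe set that carried that symbol alone. The genes were selected on their measured intensities, since earlier results of the same arrays showed them high in double knockout (DKO) against control cells. Their levels in DKO are therefore given as a description and without a test. In the RefSeq gene order of assembly GRCm38.p6 they follow each other in the sequence Aadacl2fm1, Gm9696, Aadacl2, Aadac, with 1 further pseudogene, Gm18427, between Aadacl2 and Aadac. RefSeq lists Aadacl2fm1, Aadacl2 and Aadac as protein coding and Gm9696 as a transcribed pseudogene.

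The series profiled cultured keratinocytes, the epithelial cells of the epidermis, from skin of C57BL/6 mouse embryos (E18.5) on 6 Affymetrix arrays. The DKO group was Ovol2flox/-;K14-Cre;Ovol1-/-, which lacks Ovol1 throughout and loses its remaining Ovol2 copy in cells that have used the keratin 14 promoter, which drives Cre in the basal layer. The Ovol1 KO group was Ovol1-/-, and the control group was Ovol2flox/+;Ovol1+/- or Ovol2flox/+;K14-Cre. Control cells could thus carry a reduced dose of Ovol1, or the Cre transgene with loss of the floxed copy of Ovol2. Each group had 2 arrays, and each array held RNA of 2 pooled mice. The labels do not say which of the control genotypes went into which array. All cells were grown for 2 to 5 days, then given calcium, which starts keratinocyte differentiation, and grown for another 3 to 5 days.

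Arylacetamide deacetylase, the product of Aadac, is a membrane-bound esterase of the endoplasmic reticulum that faces its lumen and cleaves ester and amide bonds of small molecules, among them drugs. It is best known in liver and intestine. Its family is related in sequence to hormone-sensitive lipase, and the Aadacl genes are named for their similarity to Aadac. Substrates of the products of Aadacl2 and Aadacl2fm1 are not described here. The zinc finger proteins made from Ovol1 and Ovol2 are transcription factors of epithelia and are known mainly as repressors. Genes of such a cluster arise by duplication and resemble each other, so a probe set of one may also bind RNA of another. Probe sequences were not used here, and the share of each signal that comes from a relative was not tested.

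Among the start regions compared, those of Aadacl2fm1 and Aadacl2 were the most alike, which does not test whether their probe sets share RNA. They are printed because Aadacl2fm1 and Aadacl2 were high in the same arrays. Both sequences are from RefSeq in build GRCm38.p6, on the + strand, and run from 250 bases before to 50 bases after the annotated start. Capitals mark stretches of at least 10 bases that were identical between the aligned sequences. That of Aadacl2fm1 lies at chr3:59924964-59925263 and that of Aadacl2 at chr3:60006493-60006792.
Aadacl2fm1: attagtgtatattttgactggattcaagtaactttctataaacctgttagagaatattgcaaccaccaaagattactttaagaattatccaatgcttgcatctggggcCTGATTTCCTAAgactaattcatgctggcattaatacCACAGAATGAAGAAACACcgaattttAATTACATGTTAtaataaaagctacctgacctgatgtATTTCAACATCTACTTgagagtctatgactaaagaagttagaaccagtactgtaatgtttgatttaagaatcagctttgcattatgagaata
Aadacl2: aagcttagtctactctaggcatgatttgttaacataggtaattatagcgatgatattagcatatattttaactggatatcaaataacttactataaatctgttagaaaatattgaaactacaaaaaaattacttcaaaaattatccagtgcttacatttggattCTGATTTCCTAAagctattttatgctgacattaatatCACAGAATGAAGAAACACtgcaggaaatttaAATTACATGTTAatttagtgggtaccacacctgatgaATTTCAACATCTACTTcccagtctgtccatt
Of 239 aligned bases 204 were identical, or 85.4%, with a longest unbroken match of 18 bases and 4 matches of 10 bases or more. The other 44 pairs among 10 start regions of the family and its neighbour Sucnr1 had 62.6% to 80.3% identical bases under the same gap settings, with longest matches of 5 to 10 bases. The identity between Aadac and Aadacl2fm1 was 72.5%, and between Aadac and Aadacl2 it was 69.3%, both inside that range. The matched stretches lie nearer the downstream end of the window in Aadacl2 than in Aadacl2fm1. The sequence table used held no start region for Gm9696.

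A search on both strands of the start regions of Aadacl2fm1, Aadacl2 and Aadac found 0 copies of CCGTTA, the core recognised by proteins of the Ovo family, in any of the 3, against 2.8% of all 32851 start regions of the same length. The sequence CAGGTG, an E-box bound by Zeb proteins, was found 1 time in Aadacl2, 0 times in Aadacl2fm1 and 0 times in Aadac, and 20.2% of all regions held it. TGANTCA, the AP-1 element, was in 0 of the 3, against 7.8% of all regions. TATAAA was found 1 time each in Aadacl2fm1 and Aadacl2 and 0 times in Aadac, against 13.6% of all regions. The matches in Aadacl2 did not overlap each other, and a match or its lack describes this window only.

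Before the genes themselves, a few facts of the arrays bear on them. The keratinocyte label was matched by its markers: all 7 listed (Krt5, Krt14, Trp63, Krt1, Krt10, Dsg3 and Col17a1) lay above the median probe set on every array. Krt5 and Krt14, the basal keratins, had log2 levels from 13.61 to 13.94 on all 6 arrays. The probe set of Ovol1 lay at log2 levels of 10.58 and 10.59 in DKO, 10.53 and 10.22 in Ovol1 KO and 10.27 and 9.85 in control, and that of Ovol2 at 8.71 and 8.32 in DKO, 9.0045 and 8.99 in Ovol1 KO and 8.12 and 8.82 in control. Neither had a lower mean than control in a genotype labelled as its knockout, and limma called no difference between genotypes for either gene (lowest adjusted p = 0.301). Nothing used here says whether the probes lie inside the deleted parts, so these values do not check the labels. Xist, which is made by cells with an inactive X chromosome, lay at log2 levels of 12.12 and 12.26 in DKO, at 4.59 and 11.97 in Ovol1 KO replicates 1 and 2, and at 4.71 and 4.65 in control, although every array is labelled female. Kdm5d, a gene of the Y chromosome, lay at 14.70, the top of the normalized scale, on both control arrays and on Ovol1 KO 1. It lay at 7.53 and 7.64 in DKO and at 7.50 in Ovol1 KO 2. The female label thus goes against the RNA of the control arrays and of Ovol1 KO 1. DKO and control arrays therefore differed in sex-linked RNA as well as in genotype, which cannot be told apart in this contrast. The part of sex in the levels of the cluster was not tested. In a mixed RNA sample, a change in the number of cells that make an RNA and a change in its amount per cell cannot be told apart.

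Aadacl2fm1 had the greatest difference between the genotypes among the 4. Its deposited intensity was 6593 and 3684 on the DKO arrays, against 51.7 and 44.3 on the Ovol1 KO arrays and 53.8 and 66.8 on the control arrays. Both DKO arrays stood far above the other 4, which lay close together at the dim end of the scale. The lower of the DKO values was 55.1 times the highest of the others. On the log2(intensity + 16) scale after quantile normalization, the mean was 12.28 ± 0.55 in DKO, 5.97 ± 0.03 in Ovol1 KO and 6.29 ± 0.11 in control (SD, n = 2 arrays each). The log2 fold change was 5.99 (SE 0.27) for DKO against control and 6.31 (SE 0.27) for DKO against Ovol1 KO. Among all genes these were the 2nd and the 1st largest differences in favour of DKO. In the same contrasts the ranks were 5 and 2 for Gm9696, 10 and 15 for Aadacl2 and 82 and 54 for Aadac. The genes were chosen for high levels in DKO, so the ranks are a description.

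Gm9696, the transcribed pseudogene next to it, was high in the same arrays. It stood at 14319 and 12618 on the DKO arrays, at 365 and 422 on the Ovol1 KO arrays and at 459.6 and 473 on the control arrays. The groups did not overlap, and the DKO arrays agreed more closely with each other than for the coding genes. The mean log2 level was 13.66 ± 0.16 in DKO, 8.65 ± 0.17 in Ovol1 KO and 8.93 ± 0.04 in control (SD, n = 2 each). The log2 fold change was 4.73 (SE 0.17) for DKO against control and 5.01 (SE 0.17) for DKO against Ovol1 KO. The brightest probe set reached 42556 on DKO 1 and 19711 on DKO 2, so Gm9696 was not at the top of the scale there. Whether its probes were close to saturation was not tested.

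Aadacl2 followed with a smaller difference. Its intensity was 1259.95 and 744 on the DKO arrays, 45.04 and 82.6 on the Ovol1 KO arrays and 37.4 and 32.6 on the control arrays. The DKO arrays were again apart from the rest, and Ovol1 KO 2 was the highest of the other 4. The mean log2 level was 9.96 ± 0.45 in DKO, 6.24 ± 0.64 in Ovol1 KO and 5.72 ± 0.15 in control (SD, n = 2 each). The log2 fold change was 4.23 (SE 0.34) for DKO against control and 3.72 (SE 0.34) for DKO against Ovol1 KO.

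Aadac, the gene of the founding enzyme, differed least. Its intensity was 509 and 289.6 on the DKO arrays, 57.0 and 76.8 on the Ovol1 KO arrays and 63.8 and 77.8 on the control arrays. The lower DKO value was still 3.73 times the highest of the other arrays. The mean log2 level was 8.61 ± 0.56 in DKO, 6.33 ± 0.38 in Ovol1 KO and 6.47 ± 0.09 in control (SD, n = 2 each). The log2 fold change was 2.14 (SE 0.30) for DKO against control and 2.29 (SE 0.30) for DKO against Ovol1 KO. All 4 genes thus had both DKO arrays above the other 4 arrays, a pattern shown by 16.8% of all genes. Since the genes were chosen for their level in DKO, nothing is read from that count.

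**Figure D1:**
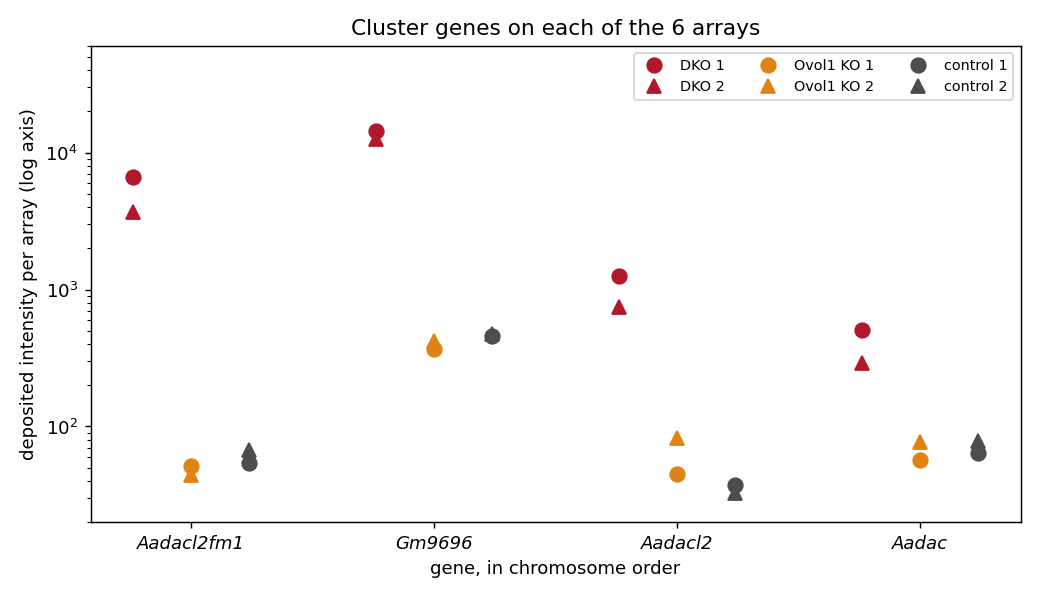
Deposited intensity of the 4 cluster genes on each array, on a log axis, with genes in their order along the chromosome; circles are replicate 1 and triangles replicate 2 of DKO (red), Ovol1 KO (orange) and control (grey). Both DKO arrays lie above the other 4 for every gene, from 3.73 times (Aadac) to 55.1 times (Aadacl2fm1) when the lower DKO value is set against the highest other value.

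The size of the difference fell in the order of the genes along the chromosome, from Aadacl2fm1 over Gm9696 and Aadacl2 to Aadac. The 95% intervals of the log2 fold change between DKO and control were 5.35 to 6.63 for Aadacl2fm1, 4.32 to 5.15 for Gm9696, 3.43 to 5.04 for Aadacl2 and 1.44 to 2.85 for Aadac. Those of Gm9696 and Aadacl2 overlapped. These are intervals of the mean difference from the limma fit, with a spread for each gene shared by all groups. The genes were chosen on these values and 3 of them were dim outside DKO. The intervals therefore test neither the differences nor their order. In ratios of mean deposited intensities, which hold no offset, DKO over control was 85.2 for Aadacl2fm1, 28.9 for Gm9696, 28.6 for Aadacl2 and 5.64 for Aadac. The same order of the 4 log2 fold changes was found in all 16 alternative settings tried, for DKO against control and for DKO against Ovol1 KO. Many of these settings cannot move a fold change of these genes, so the same order there was fixed in advance. They are the filter on dim genes, the eBayes variants, averages over probe sets and the fit to just 4 arrays. The replicate block and the omission of an array outside the contrast also leave the values as they were. Both comparisons share the DKO arrays and are not independent of each other.

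**Figure D2:**
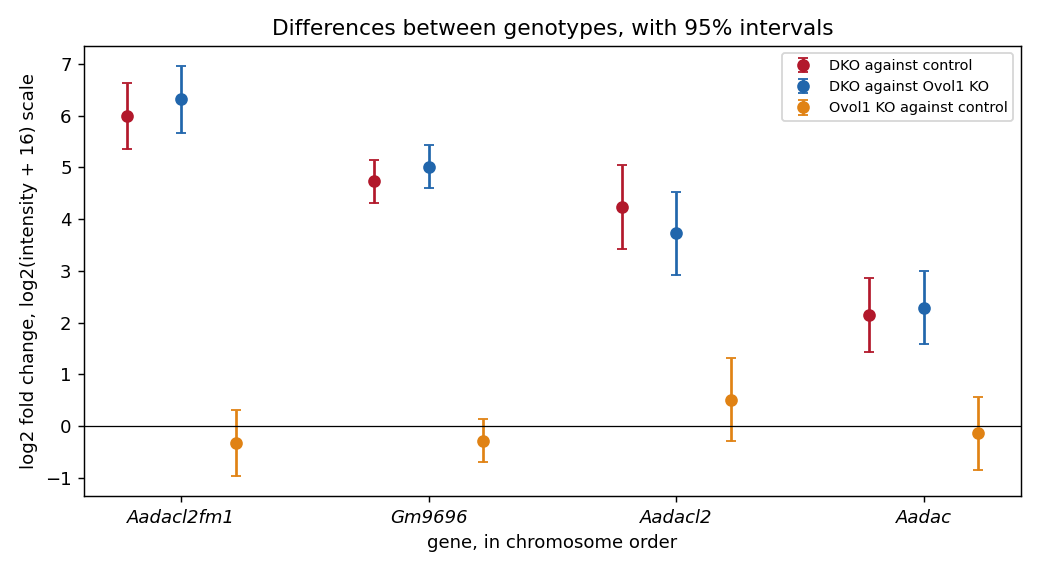
Log2 fold change of the 4 cluster genes in each pair of genotypes, on the log2(intensity + 16) scale, with 95% intervals from the limma fit. Both contrasts with DKO run from about 6 at Aadacl2fm1 down to about 2 at Aadac, and the 4 intervals of Ovol1 KO against control all include 0.

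Loss of Ovol1 alone was fitted as a contrast of its own. Its control arrays also entered the comparison on which the genes were chosen, and its variance was estimated from all 6 arrays, DKO included. None of the 4 genes was called in Ovol1 KO against control, where limma called 0 of 19938 genes, or 0%, and 162 genes had an unadjusted p below 0.05. The log2 fold change was -0.32 for Aadacl2fm1 (95% interval -0.96 to 0.32), -0.28 for Gm9696 (-0.70 to 0.13) and -0.14 for Aadac (-0.85 to 0.57), each with a limma adjusted p = 1. For Aadacl2 it was 0.51, with an interval of -0.29 to 1.31 and a limma adjusted p = 1. For Aadacl2 the normalized log2 level was 5.78 and 6.69 in Ovol1 KO, against 5.83 and 5.62 in control, so Ovol1 KO 1 lay between the control arrays. In deposited intensities both Ovol1 KO arrays (45.04 and 82.6) lay above both control arrays (37.4 and 32.6), all dim. The intervals leave room for changes on either side of 0. Without Ovol1 KO 1 the value for Aadac was 0.13 and that for Aadacl2 was 0.97, both again with an adjusted p = 1 in limma.

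Xist split the Ovol1 KO arrays, with replicate 2 as high as DKO. Against that array alone, the log2 fold change of DKO was 6.29 for Aadacl2fm1, 4.89 for Gm9696, 3.27 for Aadacl2 and 2.02 for Aadac. This sets 2 arrays against 1 and is a description. With the Xist level as a covariate, DKO against control gave 5.96 for Aadacl2fm1, 4.49 for Gm9696, 3.32 for Aadacl2 and 1.61 for Aadac. Xist hardly varied within DKO (12.12 and 12.26) or within control (4.71 and 4.65). The slope of the covariate therefore rests almost wholly on the Ovol1 KO arrays (4.59 and 11.97). These adjusted values do not separate sex-linked RNA from genotype.

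The DKO arrays differed from each other in a way that ran through the coding genes of the cluster. DKO 1 had 1.79 times the deposited intensity of DKO 2 for Aadacl2fm1, 1.69 times for Aadacl2 and 1.76 times for Aadac, but 1.14 times for Gm9696. Over all genes the median of this ratio was 0.950. The suprabasal keratins, made by differentiating keratinocytes, differed in the same direction and rose in DKO along with the cluster. Krt1 lay at log2 levels of 14.70 and 12.40 in DKO 1 and DKO 2, at 8.97 and 9.27 in Ovol1 KO and at 9.48 and 9.33 in control (log2 fold change against control 4.15, SE 0.64, limma adjusted p = 0.022). The value of 14.70 is the top of the quantile-normalized scale, which caps it. Without quantile normalization the log2 fold change of Krt1 was 4.50. Krt10 lay at 13.93 and 13.01 in DKO, 9.28 and 9.48 in Ovol1 KO and 9.77 and 8.89 in control (4.14, SE 0.37, limma adjusted p = 0.0035). The basal keratins Krt5 (13.80 and 13.94) and Krt14 (13.64 and 13.61) differed little between the DKO arrays, and the other 5 keratinocyte markers were not called. The limma call of Krt1 was lost with robust estimation (adjusted p = 0.083) and in a fit to just the 4 arrays compared (adjusted p = 0.053). It was also lost without either Ovol1 KO array. With Xist as a covariate the limma adjusted p was 0.68 for Krt1 and 0.30 for Krt10, at log2 fold changes of 3.88 and 3.95. The summed intensity of the 7 keratinocyte markers was 102650 and 59532 on the DKO arrays, 41537 and 43267 on the Ovol1 KO arrays and 40096 and 43065 on the control arrays. The part of Krt1-rich and Krt10-rich cells in the levels of the cluster was not tested.

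Because Aadac is best known in liver and intestine, markers of those cells were summed as well. The 7 hepatocyte markers measured summed to 936 and 1210.0 on the DKO arrays, 890 and 982 on the Ovol1 KO arrays and 1019 and 990 on the control arrays, and 5 or 6 of the 7 lay below the median probe set on each array. Albumin itself had log2 levels of 6.39 and 6.49 in DKO, 6.08 and 6.29 in Ovol1 KO and 7.02 and 6.36 in control. The 7 enterocyte markers summed to 717 and 1029 in DKO, 840 and 807 in Ovol1 KO and 794 and 1012 in control, with 6 of 7 below the median on every array. Neither list was higher on both DKO arrays, and limma called 0 genes of either list in DKO against control. Melanocyte markers, which differed by replicate number, summed to 1716 and 1046 in DKO, 6485 and 1121 in Ovol1 KO and 4900 and 1201 in control. Sebocyte markers summed to 22350 and 20791 in DKO, 23789 and 18898 in Ovol1 KO and 25155 and 18058 in control. Fibroblast markers summed to 1117 and 1726 in DKO, 1415 and 1149 in Ovol1 KO and 1208 and 1323 in control. Fat cell markers summed to 624 and 717 in DKO, 523 and 558 in Ovol1 KO and 547 and 587 in control, so this dim list was slightly higher in both DKO arrays. In DKO against control limma called 1 gene of the sebocyte list (Fabp5, higher by 0.43 log2 units), 1 of the fibroblast list (Pdgfra, with a log2 fold change of -1.06) and 0 of the melanocyte and fat cell lists. The call of Fabp5 was lost with any 1 array left out (limma adjusted p from 0.071 to 0.24), and that of Pdgfra without DKO 1, DKO 2 or control 1 (limma adjusted p = 0.11, 0.13 and 0.16). Of the 7 sebocyte markers measured, 3 lay below the median probe set on every array, and of the 6 fibroblast markers 2 or 3 did. The part of these cell types in the levels of the cluster was not tested.

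None of the measured genes on either side of the cluster was called in the same arrays. Of the 10 annotated genes on each side, 6 were measured, and limma called 0 of them in DKO against control, where it called 639 of 19938 genes, or 3.2%, and 1 of the 6 had an unadjusted p below 0.05. Sucnr1, the succinate receptor gene that directly follows Aadac, had log2 levels of 5.71 and 5.82 in DKO, 5.47 and 5.57 in Ovol1 KO and 5.57 and 5.73 in control, all dim. Its log2 fold change was 0.12 for DKO against control (SE 0.13, limma adjusted p = 0.81), and for DKO against Ovol1 KO it was 0.24 (SE 0.13, limma adjusted p = 0.51). Mbnl1, which encodes an RNA splicing regulator and was bright on every array, had a log2 fold change of -0.09 for DKO against control (SE 0.11, adjusted p = 0.83). On the other side Gm16527 and Gm5709 had 0.13 (SE 0.16) and 0.02 (SE 0.13). Both were at the dim end, with deposited intensities of 23.5 to 37.9 for Gm16527 and 3.2 to 7.7 for Gm5709. Flat values so near the floor cannot show that these genes did not change. At the outer ends of the window, Igsf10 had 0.55 (SE 0.19, adjusted p = 0.22) and P2ry1, an ADP receptor gene, had 0.62 (SE 0.29, adjusted p = 0.41). The median over the 6 was 0.12, against 0.02 over all genes. In DKO against Ovol1 KO limma called 0 of the 6 and 2.15% of all genes, with 1 of the 6 below 0.05 before adjustment, and the median was 0.29 against 0.09 over all genes. The coding relatives Aadacl2fm2 and Aadacl2fm3 lie in this window, with Aadacl2fm3 directly before Aadacl2fm1. They were not among the genes measured, so their levels are unknown here, and only their start regions were compared.

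**Figure D3:**
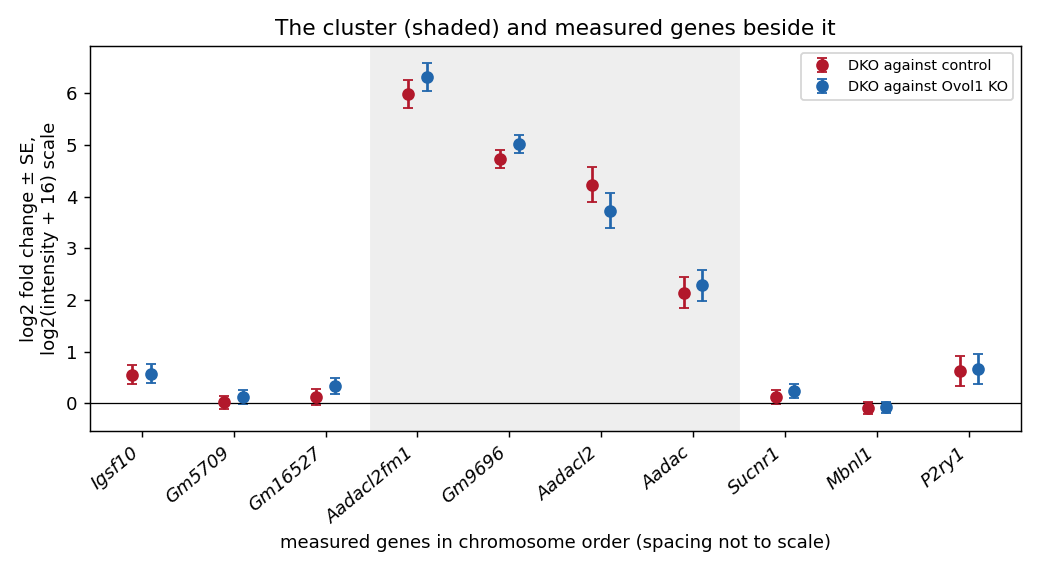
Log2 fold change with SE of the 4 cluster genes (shaded) and the 6 measured genes beside them, in chromosome order with spacing not to scale, for DKO against control (red) and DKO against Ovol1 KO (blue). The cluster genes lie between 2.14 and 6.31, and the flanking genes between -0.09 and 0.67.

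Among relatives outside the cluster the one call was a fall. Of 12 further genes of the arylacetamide deacetylase and hormone-sensitive lipase family, 5 were measured, of which 1 fell, 0 rose and 4 did not pass in DKO against control, where 3.2% of all genes were called. The gene that fell was Lipe, which encodes hormone-sensitive lipase, with log2 levels of 9.28 and 9.40 in DKO, 10.18 and 10.21 in Ovol1 KO and 10.45 and 10.87 in control. Its log2 fold change was -1.32 (SE 0.20, limma adjusted p = 0.020). The limma adjusted p of Lipe was 0.11 without DKO 1, 0.080 without DKO 2, 0.054 without control 2 and 0.60 with Xist as a covariate, so the call was lost in each, while its log2 fold change stayed between -1.53 and -1.11 in all alternatives. Nceh1, a neutral cholesterol ester hydrolase once named Aadacl1, had a log2 fold change of -0.79 (adjusted p = 0.15), and Afmid, kynurenine formamidase, had -0.40 (adjusted p = 0.41). The chromosome 4 relatives Aadacl4 and Aadacl4fm1 were dim on all arrays and had 0.03 (adjusted p = 0.96) and 0.20 (adjusted p = 0.80). In DKO against control 2 of the 5 had an unadjusted limma p below 0.05, as did 2888 of the 19938 genes. The median over the 5 was -0.40, against 0.02 over all genes. In DKO against Ovol1 KO and in Ovol1 KO against control limma called 0 of the 5, against 2.15% and 0% of all genes, with 2 and 0 of the 5 at an unadjusted p below 0.05.

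Other enzymes that cleave esters or act beside Aadac in drug metabolism were mostly not called. Carboxylesterases are the other large family of ester-cleaving enzymes of the endoplasmic reticulum. Of 16 measured, limma called 0 in DKO against control, where it called 3.2% of all genes, and an unadjusted p below 0.05 was found for 2. Their log2 fold changes ran from -0.02 to 1.19, with 0.20 as the median. Without control 2, 1 of them was called. The highest value belonged to Ces2g, named after its values were seen, at log2 levels of 12.37 and 12.06 in DKO, 10.55 and 11.54 in Ovol1 KO and 10.32 and 11.73 in control (adjusted p = 0.32). Its control and Ovol1 KO arrays differed more by replicate number than by genotype.

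The list of neutral lipid hydrolases also held phospholipases. Of its 25 genes measured, 1 fell, 0 rose and 24 did not pass in DKO against control, a share near the 3.2% called among all genes. Before adjustment the limma p was below 0.05 for 8 of the 25, and for 2888 of the 19938 genes. The median was 0.03, against 0.02 over all genes. The one that fell was Ddhd1, a phospholipase, with a log2 fold change of -1.16 (SE 0.22, limma adjusted p = 0.042). Its limma adjusted p was 0.20 without DKO 1, 0.16 without DKO 2, 0.14 without control 1 and 0.82 with Xist as a covariate. Its log2 fold change was -1.13, -1.20 and -1.05 with those arrays left out and -0.61 with Xist as a covariate. Without control 2, 2 genes of the list were called. Mgll, monoglyceride lipase, and Lipn of the acid lipase family, both named after their values were seen, had the highest values of the list. Mgll lay at 8.54 and 8.52 in DKO, 7.38 and 5.85 in Ovol1 KO and 7.09 and 5.33 in control (log2 fold change 2.32, adjusted p = 0.14). Lipn lay at 10.17 and 10.28 in DKO, 8.72 and 9.37 in Ovol1 KO and 7.40 and 8.93 in control (2.06, adjusted p = 0.083). Both DKO arrays of each lay above the other 4, but the other groups were widely spread.

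Of 25 measured partner enzymes of drug metabolism, limma called 0 in DKO against control, against 3.2% of all genes. An unadjusted p below 0.05 was found for 8 of the 25 and for 2888 of the 19938 genes. Their log2 fold changes ran from -1.76 to 2.12, with 0.11 as the median. Without control 2 the count was 3, and without control 1, without DKO 2 or without either Ovol1 KO array it was 1. The highest values, picked after they were seen, were those of the cytochrome P450 gene Cyp2s1 and the flavin monooxygenase gene Fmo1. Cyp2s1 lay at 12.16 and 10.63 in DKO, 8.86 and 9.53 in Ovol1 KO and 8.77 and 9.78 in control (log2 fold change 2.12, adjusted p = 0.11). Fmo1 lay at 10.33 and 8.50 in DKO, 7.26 and 7.32 in Ovol1 KO and 7.37 and 7.25 in control (2.10, adjusted p = 0.0997). For both genes DKO 1 exceeded DKO 2, as it did for the cluster genes. In DKO against Ovol1 KO, and in Ovol1 KO against control, limma called 0 genes of the carboxylesterase, lipid hydrolase and partner lists, with 4, 7 and 8 genes at an unadjusted p below 0.05 in the first contrast and 0 in the second. The first contrast called 2.15% of all genes. There the lipid hydrolases gave 3 calls without control 1 and 1 without control 2, and the partner list gave 3 without either control array and 1 without DKO 2.

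**Figure D4:**
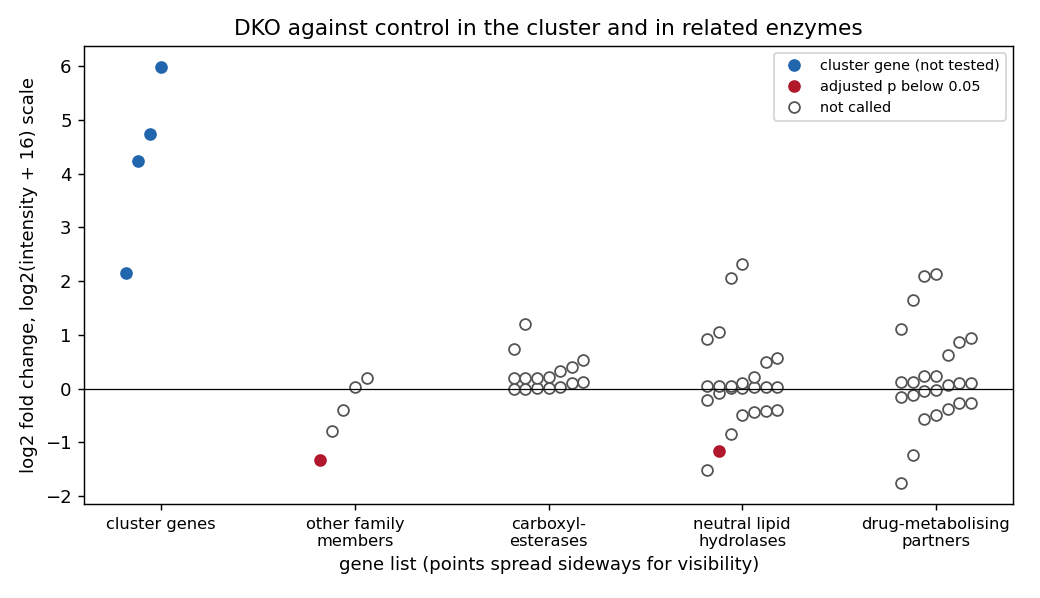
Log2 fold change of DKO against control for the cluster genes (filled blue, described without a test) and for 4 lists of related enzymes, where filled red points were called by limma and open points were not. The cluster genes lie from 2.14 to 5.99, while the lists reach no further than 2.32, and the called points are Lipe (-1.32) and Ddhd1 (-1.16).

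The profiles most like those of the cluster genes were looked up among 798 other genes whose log2 level ranged over at least 2 units across the 6 arrays. Likeness was Pearson's r over the 6 arrays. All genes named below share the step between the 2 DKO arrays and the other 4, and r over so few arrays is given as a description. For Aadacl2fm1 the 5 most alike were Gm9696 (r = 0.998), Pou2f3 (0.997), Ackr4 (0.996), Ggct (0.996) and Cdhr1 (0.995). For Gm9696 the 5 most alike were Aadacl2fm1 and the same other 4, with r from 0.993 to 0.998. Pou2f3, a POU domain transcription factor gene, had log2 levels of 11.84 and 11.15 in DKO, 6.78 and 6.998 in Ovol1 KO and 6.72 and 6.83 in control. Ackr4, which encodes an atypical chemokine receptor that scavenges chemokines, stood at 10.76 and 10.73 in DKO, 6.78 and 6.63 in Ovol1 KO and 6.69 and 6.84 in control. Neither overlapped between DKO and the other genotypes, and the DKO arrays lay closer together for Ackr4 than for Pou2f3. Ggct encodes an enzyme of glutathione turnover, and Cdhr1 a cadherin-related protein.

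Aadacl2 had a different set of nearest profiles. They were Nod1 (r = 0.997), an intracellular sensor of bacterial cell wall fragments, the Hedgehog co-receptor gene Gas1 (0.996), the glycolipid glycosyltransferase gene B3galnt1 (0.995), the growth factor receptor gene Fgfr3 (0.994) and Aqp3 (0.994), the water and glycerol channel gene of the epidermis. Aqp3 lay at 13.01 and 12.62 in DKO, 9.53 and 10.64 in Ovol1 KO and 9.56 and 9.28 in control. Like Aadacl2, it was higher in Ovol1 KO 2 than in the other 3 arrays outside DKO. For Aadac the nearest were Slc22a4 (0.999), a transporter of ergothioneine, Otulinl (0.994), the gasdermin gene Gsdmc (0.992), the gelatinase gene Mmp2 (0.991) and the protease inhibitor gene Csta3 (0.990). Slc22a4 lay at 9.80 and 9.16 in DKO, 7.64 and 8.12 in Ovol1 KO and 7.88 and 7.97 in control. Its DKO arrays differed from each other as those of Aadac did. Among the cluster genes themselves, r lay between 0.976 and 0.998, and Spearman's rho was 1 for Aadacl2fm1 with Gm9696, 0.829 for Aadac with each of the other 3, and 0.6 for Aadacl2 with Aadacl2fm1 and with Gm9696.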

How the data were processed

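The authors deposited 1 linear intensity per probe set and array, already summarised from probes (35556 probe sets, with 0 further columns of per-sample values left unused). Expression Console 1.1.1 by Affymetrix and PLIER 2.0 appear in the submitters' processing notes, without a role. How background was corrected and arrays were scaled is not given in the sources used here, and no detection call was present. Medians per array ran from 174.2 to 203.6. The small number of arrays limits the precision.

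Here each intensity was increased by 16, log2-transformed and quantile-normalized over all probe sets, because quartiles differed between arrays by up to 0.22. The offset makes fold changes of dim genes smaller. Of the probe sets, 21789 carried 1 gene symbol, 1621 several and 12146 none here. For the 999 genes with several probe sets the brightest was kept, leaving 19938 genes. A model with 1 mean per group over all 6 arrays was fitted with limma 3.58.1 in R 4.3.3 (eBayes with a variance trend, 3 residual and 3.89 prior degrees of freedom), and p-values were adjusted by Benjamini-Hochberg over the whole table. Calls were made at adjusted p-values below 0.05. The labels name the arrays of a group biological replicates. The fit was tested on simulated data.

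The members, the gene lists and the tests were chosen with earlier results of these data known. The members are given on every array. From each list, the genes called are named, at most 4 per contrast, together with the 5 profiles most like each member whose level ranged over at least 1 log2 unit. Other genes are marked as named after their values were seen, apart from the flanking and family genes and the markers, whose lists are given in full or by sums. Start regions were aligned with Biopython 1.88 (match 1, mismatch -1, gap opening -2, gap extension -0.5). The alternatives were offsets of 1 and 64, no quantile normalization, a filter on the dimmest 30% of genes, eBayes with robust estimation or with no trend, averages over probe sets, a fit to just 4 arrays per contrast, a replicate block, Xist as a covariate and each array left out.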

Additional observations from a re-analysis of the deposited data

How the results depend on the processing

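All 4 cluster genes kept a higher level in DKO in all 16 alternatives of both DKO contrasts, a direction that their choice fixes. With an offset of 64, DKO against control was 1.69 for Aadac, 3.37 for Aadacl2 and 5.31 for Aadacl2fm1, and DKO against Ovol1 KO was 1.78, 3.06 and 5.50 for the same genes and 4.86 for Gm9696. With an offset of 1, Aadacl2 was 4.70 against control and Aadacl2fm1 was 6.70 against Ovol1 KO. With Xist as a covariate, DKO against control was 1.61 for Aadac, 3.32 for Aadacl2 and 4.49 for Gm9696, and Aadacl2 was 3.25 against Ovol1 KO. With single arrays left out, DKO against control ran from 1.75 to 2.54 for Aadac, 3.92 to 4.55 for Aadacl2, 5.60 to 6.38 for Aadacl2fm1 and 4.62 to 4.85 for Gm9696, and DKO against Ovol1 KO from 1.89 to 2.68, 3.27 to 4.18, 5.92 to 6.70 and 4.89 to 5.14 in the same order of genes. The extremes for Aadac and Aadacl2fm1 came from leaving out DKO 1 or DKO 2. In Ovol1 KO against control Aadac lay between -0.41 and 0.13 when each array was omitted and turned positive without Ovol1 KO 1, and the adjusted p of the 4 genes ran from 0.90 to 1 over the alternatives.

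Counts over all genes moved more. DKO against control (188 higher, 451 lower) gave 301 and 768 with the replicate block, 3 and 5 with Xist as a covariate, and 67 to 188 and 189 to 547 with single arrays left out. DKO against Ovol1 KO (131 and 298) gave 239 and 499 from the 4 arrays compared, 225 and 580 with the replicate block, 18 and 55 with Xist as a covariate, and 23 to 235 and 65 to 506 with single arrays left out. Ovol1 KO against control gave 1 higher and 3 lower without Ovol1 KO 1, and 0 to 1 and 0 to 3 over all arrays left out. In at least 1 direction, counts fell by over 1.5 times without DKO 1 or DKO 2 in both DKO contrasts, without control 1 in DKO against control (285 lower) and without either Ovol1 KO array in DKO against Ovol1 KO, where they grew to 235 and 503 without control 1 and to 228 and 506 without control 2. The cause was not tested. Same-numbered arrays deviated from their group means with correlations of 0.69 between Ovol1 KO and control, 0.15 between DKO and control and 0.09 between DKO and Ovol1 KO. Since those with DKO were low, the numbers were not taken to pair the arrays. For Ovol1 KO against control the main fit thus leaves out a difference by replicate number that both groups shared. There limma called 0 genes with the replicate block as well. With the replicate block the family, lipid hydrolase and partner lists gave 2, 3 and 1 calls in DKO against control (1, 1 and 0 without it), and the lipid hydrolases 1 in DKO against Ovol1 KO. From the 4 arrays compared, the partner list gave 1 in DKO against control. In DKO against Ovol1 KO the lipid hydrolase and partner lists, with 0 calls each, gave 3 each from the 4 arrays compared. Levels near the low end of the scale, as for Aadacl2fm1, Aadacl2 and Aadac outside DKO, have no detection call, so the size of their difference depends on the offset.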
